A study of Mus musculus with 6 samples.

Results

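The Kruppel-like factors are zinc finger transcription factors, and 10 of their genes were described here in the embryonic mouse heart: Klf2, Klf3, Klf4, Klf5, Klf6, Klf7, Klf9, Klf10, Klf13 and Klf15. The 10 were selected by gene symbol from the 30619 rows of a table of read counts, and all 10 had enough counts to be tested. They were chosen from results of this same comparison, so their differences between the groups are given as a description and not as a test. Poly(A) RNA was sequenced from E12.5 embryonic hearts, in 3 control libraries whose genotype is labelled WT and 3 libraries titled CKO, a conditional knockout of Trim28. TRIM28 is a co-repressor that zinc finger proteins bring to DNA. For those 3 libraries the genotype field says TRIM28 knockdown, and the title was followed. The sources used here give neither the Cre driver, the deleted exons, the alleles of the controls nor how many hearts made a library. The labelled material is mixed embryonic cardiac cells, so every value is an average over cell types, and fewer cells of a type cannot be told apart from less RNA per cell.

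Each Kruppel-like factor ends in a set of C2H2 zinc fingers that bind GC-rich DNA, typically CACCC and GC boxes, while the rest of the protein differs between members. KLF2, KLF4, KLF5, KLF6 and KLF7 belong to a group that mostly activates transcription, KLF3 recruits the co-repressor CtBP, and KLF9, KLF10 and KLF13 recruit the co-repressor Sin3A. KLF15 falls outside these groups. In the cardiovascular system KLF2 and KLF4 are known as flow-responsive factors of the endothelium and endocardium, KLF13 as a partner of GATA4 and TBX5, and KLF15 as a brake on growth and a regulator of metabolism in heart muscle.

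The libraries held between 34400841 and 39763233 counts, with 23736 to 24725 genes detected in each. Trim28 itself was measured at 305, 391 and 443 CPM (counts scaled to library size) in controls 1, 2 and 3, against 172, 314 and 165 CPM in CKO 1, 2 and 3. The library labelled CKO 2 therefore lay inside the control range, and the difference did not pass the test across all genes (log2 fold change −0.81, SE 0.34, edgeR adjusted p = 0.339). Markers of heart tissue were abundant, with the summed CPM of 8 cardiomyocyte genes between 19638 and 21810 over the 6 libraries. Markers of lung and liver summed to at most 0.987 CPM, and of skeletal muscle to at most 0.855 CPM. A row of ribosomal RNA took 0.522%, 0.222% and 0.126% of the counts in controls 1, 2 and 3 and 0.790%, 0.672% and 0.563% in CKO 1, 2 and 3, so it was higher in every CKO library. Control 2 stood apart in Y-linked genes, whose summed log2 CPM was −16.4 there and 17.0 to 22.5 in the other 5 libraries.

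The promoters of Klf6, Klf2 and Klf4 are shown because Klf6 was the 1 member whose groups separated, whereas Klf2 and Klf4, from the same activator group, overlapped. The stretches run 5′ to 3′ on the gene's strand, in the GRCm38.p6 assembly from RefSeq, and stop before the first annotated start of the gene. Capitals mark GC boxes, spelled GGGCGG, and boxes of the CCAAT kind, each on either strand. The Klf6 stretch is chr13:5861239-5861481 on the plus strand, that of Klf2 is chr8:72318812-72319032 on the plus strand, and that of Klf4 is chr4:55532476-55532725 on the minus strand.
Klf6: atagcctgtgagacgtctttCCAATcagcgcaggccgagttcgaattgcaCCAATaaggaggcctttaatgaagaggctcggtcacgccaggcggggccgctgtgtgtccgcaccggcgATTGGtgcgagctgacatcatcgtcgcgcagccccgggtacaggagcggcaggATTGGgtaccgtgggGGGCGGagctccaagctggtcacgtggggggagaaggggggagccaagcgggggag
Klf2: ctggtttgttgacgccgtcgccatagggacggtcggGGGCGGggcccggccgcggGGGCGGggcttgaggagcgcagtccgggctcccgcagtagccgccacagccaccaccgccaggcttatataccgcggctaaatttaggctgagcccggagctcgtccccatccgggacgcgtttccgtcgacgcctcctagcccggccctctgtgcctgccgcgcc
Klf4: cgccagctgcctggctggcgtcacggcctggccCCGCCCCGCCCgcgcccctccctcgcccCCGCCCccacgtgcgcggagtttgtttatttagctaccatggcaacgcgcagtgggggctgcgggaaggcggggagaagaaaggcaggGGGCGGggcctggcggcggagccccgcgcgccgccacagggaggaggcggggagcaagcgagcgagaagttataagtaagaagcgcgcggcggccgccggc

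The Klf6 promoter held 4 CCAAT boxes, 230, 200, 131 and 78 bases before its RefSeq start, and 1 GC box at 63 bases. Klf4 had 4 GC boxes, of which those at 217 and 212 bases overlap, and Klf2 had GC boxes at 214 and 195 bases. Neither Klf2 nor Klf4 had a CCAAT box in this window. Promoter windows of 250 bases before and 50 after the start matched 8 of the 10 members, all but Klf5 and Klf10. Over these windows a GC box was present in 7 of the 8 members, against 35.66% of 32851 mouse promoters of the same length. A CACCC box was present in 6 of 8, against 57.52% of all promoters. A CCAAT box was present in 4 of 8, namely Klf6, Klf9, Klf13 and Klf15, against 37.41%. The groups of Klf9, Klf13 and Klf15 overlapped in expression, as those of Klf2 and Klf4 did. No member had a TATA box searched as TATAAA (13.62% of all promoters) or a CArG box, the motif of serum response factor (1.629%). The core of the cyclic AMP response element, TGACG, was present in 6 of 8 (20.81%) and the hypoxia response core ACGTG in 4 of 8 (19.62%). The windows of these 8 members were rich in G and C, from 58.33% for Klf7 to 76.67% for Klf3. The median over all promoters was 52.67%, and the part of base composition in the motif shares was not tested. All motifs were searched on both strands, and a match describes the letters and not a binding site.

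Klf6, a broadly expressed activator that responds to injury and growth signals, was the member with the clearest difference. Its gene lies on chromosome 13 from 5861482 to 5870394 on the plus strand of mm10 (ENSMUSG00000000078.7), with no other annotated gene overlapping it. Klf6 was measured at 64.0, 69.2 and 68.7 CPM in controls 1, 2 and 3 and at 82.2, 83.9 and 91.8 CPM in CKO 1, 2 and 3. Every CKO library was above every control library, and CKO 3 was the highest of the 6. Mean CPM was 67.3 ± 2.89 for controls and 86.0 ± 5.13 for CKO (SD, n = 3 a group), a log2 fold change of 0.35 (SE 0.06, 95% interval 0.22 to 0.49) or 1.28-fold. The 2549 to 3634 reads behind each Klf6 value put its counting error at 1.98% or less of the value. Without the library labelled CKO 2 the log2 fold change was 0.37, and leaving out each library in turn gave 0.30 to 0.38.

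Klf6 was the only member of the 10 that passed an adjusted p of 0.05 in the direction of higher expression, and 0 passed in the other direction. DESeq2 and limma-voom gave the same counts, and at an unadjusted p under 0.05 there were likewise 1 higher and 0 lower. Over all 17557 tested genes, 3.03% were called higher and 1.07% lower, and since the members were picked from results of this contrast, nothing is read from their count against that share. Non-overlap in the upward direction was also seen in 1 of 10 members, against 11.5% of all genes, and in the downward direction in 0 of 10, against 10.6%. The median log2 fold change of the members was −0.04, beside 0.00 over all genes, with 4 members positive and 6 negative.

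**Figure D1:**
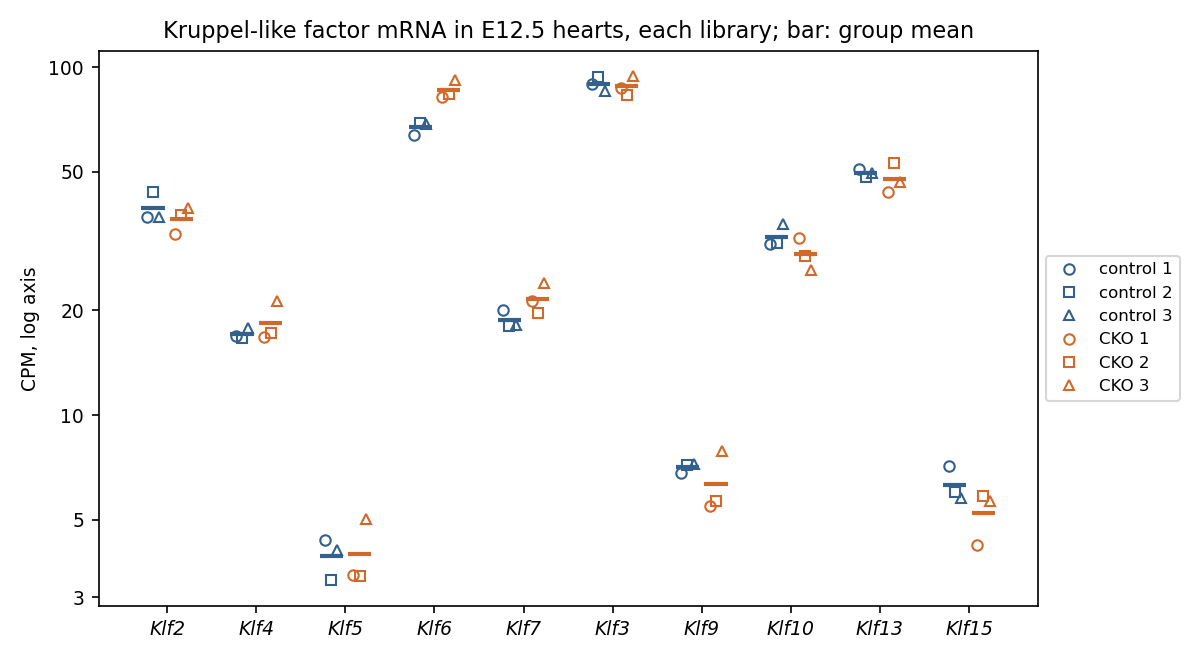
CPM (log axis) of the 10 Kruppel-like factor genes in each of the 3 control and 3 CKO libraries, with 1 symbol per replicate number and a bar at each group's mean. Klf6 is the gene whose CKO libraries (82.2 to 91.8 CPM) all lie above the controls (64.0 to 69.2 CPM).

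Among the other activators, Klf2, the flow-induced factor of endothelium and endocardium, was measured at 37.2, 43.7 and 37.2 CPM in controls and at 33.2, 37.7 and 39.3 CPM in CKO. The groups overlapped, with control 2 the highest library and CKO 1 the lowest. Mean CPM was 39.4 ± 3.76 and 36.7 ± 3.18, with a log2 fold change of −0.10 (SE 0.08, 95% interval −0.28 to 0.08).

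Klf4, which restrains inflammation in endothelium and is also known as a pluripotency factor, was measured at 16.9, 16.6 and 17.8 CPM in controls and at 16.8, 17.2 and 21.3 CPM in CKO. CKO 3 stood above the other 5 libraries, which lay between 16.6 and 17.8 CPM. The log2 fold change of Klf4 was 0.11 (SE 0.11, 95% interval −0.11 to 0.34), and it was −0.01 without CKO 3.

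Klf5, which acts in smooth muscle and in cardiac lipid metabolism, was the scarcest member, at 4.39, 3.35 and 4.09 CPM in controls and 3.48, 3.46 and 5.03 CPM in CKO. CKO 3 was again the highest library while CKO 1 and CKO 2 lay near the lowest control. Its log2 fold change was 0.03 (SE 0.21, 95% interval −0.42 to 0.47), turned to −0.19 without CKO 3, and rested on only 119 to 199 reads a library. The interval leaves room for a change of about the size measured for Klf6 in either direction, so such a change is not excluded for Klf5.

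Klf7, known for its part in neurons and their axons, was measured at 20.05, 18.1 and 18.2 CPM in controls and at 21.3, 19.7 and 23.9 CPM in CKO. CKO 2 lay below control 1, and the other CKO libraries lay above all controls. Its log2 fold change of 0.21 (SE 0.10, 95% interval −0.00 to 0.41) was the largest positive value after that of Klf6. Annotated genes overlap Klf7, including an antisense RNA on the opposite strand, and the sources used here do not say whether the counting used strand.

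Klf3, the CtBP-binding repressor of the set, had the highest CPM of the 10 in every library except the one labelled CKO 2, where Klf6 was marginally above it. Klf3 was measured at 89.3, 93.6 and 85.6 CPM in controls and 87.1, 83.2 and 94.4 CPM in CKO. Both groups spanned nearly the same range. The log2 fold change was −0.02 (SE 0.06, 95% interval −0.15 to 0.11), an interval that does not reach the value of Klf6. A transcript antisense to Klf3 and another on its own strand overlap the gene, and how many of its counts they share was not measured.

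Of the Sin3A-binding repressors, Klf9, a target of thyroid hormone and glucocorticoids, was measured at 6.80, 7.19 and 7.24 CPM in controls and at 5.49, 5.67 and 7.88 CPM in CKO. CKO 1 and CKO 2 lay below all controls and CKO 3 above them. The coefficient of variation was 3.41% in controls and 21.01% in CKO. Its log2 fold change was −0.15 (SE 0.17, 95% interval −0.49 to 0.20) with all libraries and −0.34 without CKO 3.

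Klf10, known for its early induction by TGF-beta, was measured at 31.1, 31.2 and 35.4 CPM in controls and at 32.3, 28.7 and 26.2 CPM in CKO. CKO 1 lay inside the control range and the other CKO libraries below it. The log2 fold change of Klf10 was −0.16 (SE 0.09, 95% interval −0.35 to 0.02).

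Klf13, which binds with GATA4 and TBX5 at cardiac promoters, was measured at 51.0, 48.4 and 49.6 CPM in controls and at 43.8, 53.2 and 46.7 CPM in CKO. The CKO libraries fell on both sides of the controls, with the library labelled CKO 2 the highest and CKO 1 the lowest of the 6. Its log2 fold change was −0.05 (SE 0.07, 95% interval −0.21 to 0.10), and genes on the opposite strand overlap it.

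Klf15, whose level in heart muscle is known to climb after birth, was measured at 7.15, 5.999 and 5.80 CPM in controls and at 4.22, 5.84 and 5.68 CPM in CKO. CKO 1 was the lowest library, CKO 2 lay just inside the control range and CKO 3 just under it. Klf15 had the most negative log2 fold change of the 10, −0.27 (SE 0.17, 95% interval −0.63 to 0.10), and −0.14 without CKO 1.

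The libraries did not contribute evenly to these values. CKO 3 was the highest of the 6 libraries for 6 of the 10 members, namely Klf3, Klf4, Klf5, Klf6, Klf7 and Klf9, whereas it was the highest for 15.4% of all tested genes. CKO 1 was the lowest library for 4 members, Klf2, Klf9, Klf13 and Klf15, and for 19.8% of all tested genes. Leaving out each library in turn kept the sign of the fold change in every fit for Klf2, Klf6, Klf7, Klf9, Klf10, Klf13 and Klf15. The sign turned in 2 of 6 such fits for Klf3, 1 of 6 for Klf4 and 2 of 6 for Klf5.

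**Figure D2:**
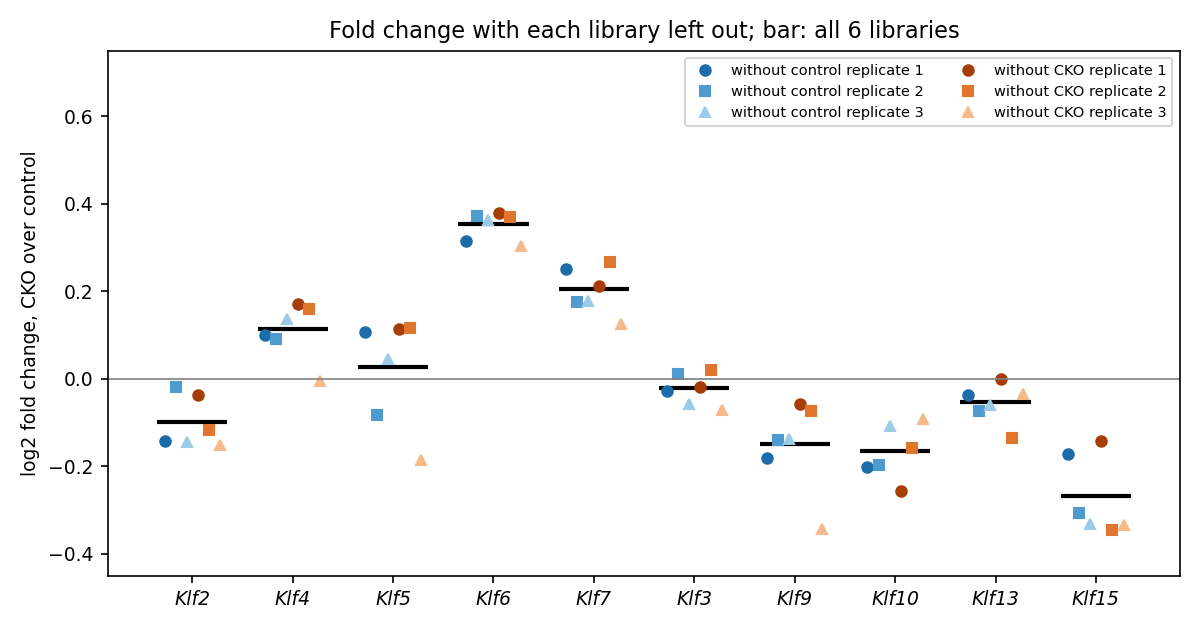
Log2 fold change (CKO over control) of each of the 10 genes after leaving out each of the 6 libraries in turn (symbols), with a bar at the value from all 6. Klf6 stays between 0.30 and 0.38, while Klf4 and Klf5 move to −0.01 and −0.19 without CKO 3.

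The members' summed CPM was 332 ± 5.02 in controls and 344 ± 16.7 in CKO (SD, n = 3 each), and Klf6 took a larger part of that sum in the CKO libraries. Klf6 made up 19.5%, 20.5% and 20.8% of the summed CPM in controls 1, 2 and 3 and 24.9%, 24.8% and 25.4% in CKO 1, 2 and 3. The ratio of Klf6 to Klf3 reads, both scaled to CPM, was 0.716, 0.739 and 0.802 in controls and 0.944, 1.01 and 0.973 in CKO. Against Klf2 the ratio was 1.72, 1.58 and 1.85 in controls and 2.48, 2.23 and 2.33 in CKO. Against Klf7 it was 3.19, 3.82 and 3.77 in controls and 3.86, 4.26 and 3.84 in CKO. These ratios need no scaling between libraries, and in none did the groups overlap, though against Klf7 the gap was narrow. They restate the Klf6 difference and are not a separate result.

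Levels of different genes were compared as CPM per kilobase of exon. The length joined all annotated exons of a gene, from 1.847 kilobases for Klf2 to 11.243 for Klf3. The order therefore depends on this annotation, since the transcripts in use were not measured. In controls Klf2 had the highest level, at 21.3 (range 20.1 to 23.7), followed by Klf6 at 15.3 (14.6 to 15.8). Klf3 at 7.96 and Klf10 at 7.79 came next and overlapped in range, ahead of Klf13 at 6.59 and Klf4 at 5.61. Klf7 at 2.31 and Klf15 at 2.26 also overlapped, and Klf9 at 1.47 and Klf5 at 0.758 were lowest. Klf2 and Klf6, whose ranges were separate in controls, overlapped in CKO, at 19.9 (18.0 to 21.3) and 19.6 (18.7 to 20.9) CPM per kilobase.

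Among 12073 genes whose log2 CPM averaged 1 or more, the profile over the 6 libraries most like that of Klf6 was that of Zbtb7b, a zinc finger factor of T cell fate, followed by Abhd18. The root mean square distance between log2 CPM profiles, each centred on its own mean, was 0.0271 for Zbtb7b and 0.0368 for Abhd18, beside 0.186 for Klf6 about its own mean. Zbtb7b was measured at 18.1, 19.9 and 20.01 CPM in controls and at 23.5, 24.1 and 25.2 CPM in CKO. Both genes were found by this likeness, so their difference between the groups is given without a test.

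The table held 7 other Kruppel-like factor genes. Of these, 6 were tested and Klf14 alone was called, where 3.03% of all tested genes were called higher and 1.07% lower. This list was chosen with earlier results of these data known, so its calls and adjusted p-values are a description. Klf14, an imprinted gene without introns that is known as a regulator of fat metabolism, lies on chromosome 6 from 30956023 to 30959078 on the minus strand of mm10. It was measured at 2.63, 2.62 and 2.80 CPM in controls and at 7.45, 6.60 and 7.45 CPM in CKO. The CKO libraries were all above the controls, with a log2 fold change of 1.42 (SE 0.18, edgeR adjusted p = 0.00014) or 2.67-fold. Counts of Klf14 ran from 101 to 295 a library, fewer than those of Klf6.

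Klf1, the erythroid member that switches on globin genes, went from 1.54 ± 0.191 CPM to 0.819 ± 0.275 CPM, which did not pass the test (log2 fold change −0.93, edgeR adjusted p = 0.174). The summed CPM of 10 erythroid markers, Klf1 among them, ranged from 1269 to 2182 in controls and from 1140 to 1276 in CKO, and its part in the Klf1 value was not tested. Klf11, a Sin3A-binding relative of Klf10, and Klf12, a CtBP-binding relative of Klf3, also had CKO values below all controls. Neither passed, with log2 fold changes of −0.18 for Klf11 (adjusted p = 0.223) and −0.30 for Klf12 (adjusted p = 0.19). With Klf1, 3 of the 6 tested genes lay below all controls, against 10.6% of all genes, and nothing is read from that count. Klf8 and Klf16 were at 0.17 and 0.06 on the same scale, with adjusted p-values of 0.616 and 0.807. Klf17 reached at most 0.177 CPM and was not tested.

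The Sp factors share the zinc fingers and bind the same GC boxes. Of 6 tested Sp genes 0 passed in either direction with edgeR, 5 had a negative log2 fold change, and the median was −0.13. At an unadjusted p under 0.05 the counts were 0 higher and 2 lower, and DESeq2 and limma-voom also called 0. Sp1, the broadly expressed founder of the family, averaged 125.3 ± 2.29 CPM across controls and 115 ± 6.04 CPM across CKO (log2 fold change −0.13, SE 0.06, adjusted p = 0.233).

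**Figure D3:**
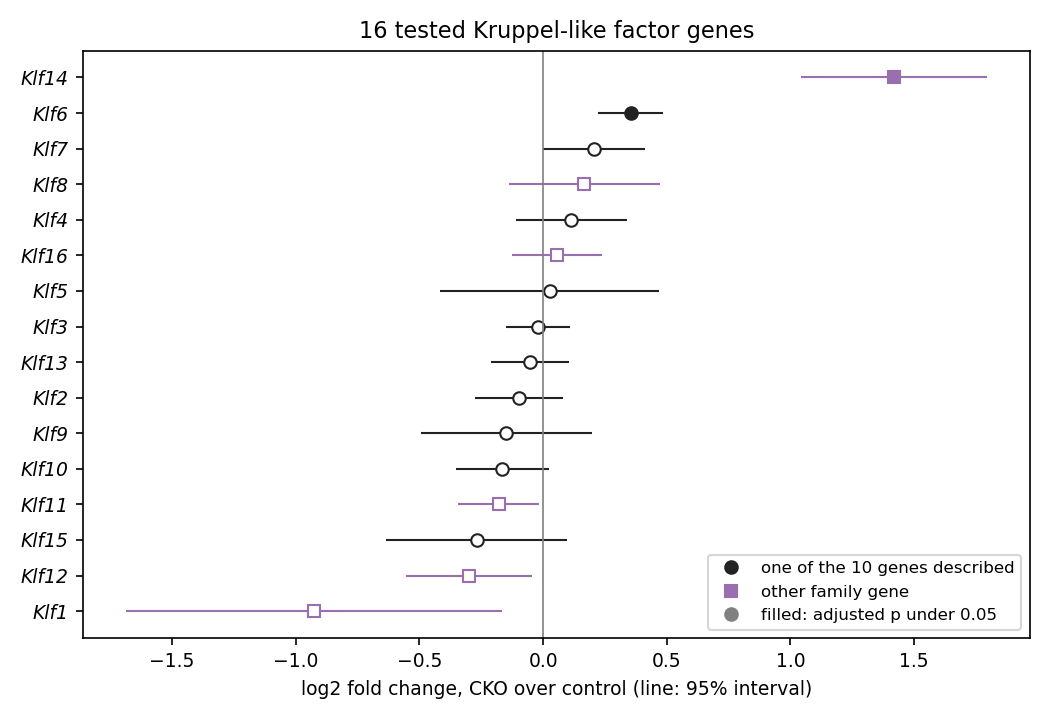
Log2 fold change (CKO over control) with its 95% interval for the 16 tested Kruppel-like factor genes, circles for the 10 described and squares for the others, filled where the adjusted p was under 0.05. Klf14 (1.42) and Klf6 (0.35) are the filled points.

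Genes around these factors were read from lists that together held 110 tested genes that are not members, each counted once. Of these, 14 were called higher and 6 lower, with a median log2 fold change of 0.01. The count of lower calls moved with single libraries, to 3, 1 and 2 without control 1, 2 or 3, 12 without the library labelled CKO 2 and 1 without CKO 3. The count of higher calls was 9 without control 1 or without control 3. Over all 17557 tested genes, 3.03% were called higher and 1.07% lower. The lists were chosen with earlier results of these data known. Their counts and adjusted p-values, here and in the paragraphs that follow, are therefore a description. The same holds for the other Kruppel-like factors and the Sp factors given above. Nothing is read from these counts against those shares. Nothing in the labels ties the libraries to separate embryos, so p-values reflect only the spread among them, which may be technical.

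Upstream of Klf2 and Klf4, the kinases MEKK3, MEK5 and ERK5, the MEF2 factors, the cerebral cavernous malformation complex that restrains them, the class IIa deacetylases and the flow sensors at the cell surface made up 15 tested genes. No gene was called higher and 2 were called lower, with a median of −0.03 on the log2 scale. The 2 were Cdh5, the adhesion molecule of endothelial junctions, and Kdr, the VEGF receptor, which act in the same flow-sensing complex. Cdh5 fell from 304 ± 7.94 to 248 ± 24.2 CPM (log2 fold change −0.30, SE 0.06, edgeR adjusted p = 0.00839), and Kdr from 177 ± 7.29 to 148 ± 17.3 CPM (−0.26, SE 0.07, adjusted p = 0.046). Mef2a and Pdcd10, at 0.08 and 0.15, did not pass.

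Of 10 tested endothelial genes known as targets of KLF2 or KLF4, 2 were called higher and 2 lower. Nos3, the endothelial nitric oxide synthase that KLF2 activates, fell from 56.4 ± 4.09 to 43.8 ± 4.33 CPM (log2 fold change −0.36, SE 0.08, edgeR adjusted p = 0.0107). Tek, the angiopoietin receptor, fell by 0.36 on the log2 scale (SE 0.06, adjusted p = 0.00195). Edn1, the vasoconstrictor that KLF2 represses, rose from 10.5 ± 0.147 to 18.5 ± 1.5 CPM (log2 fold change 0.82, SE 0.11, adjusted p = 0.00018). S1pr1, a KLF2 target that steadies endothelial junctions, rose by 0.22 (SE 0.05, adjusted p = 0.0265).

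Some of these genes also serve as endothelial markers. Of 10 endothelial and endocardial markers 3 were called lower (Cdh5, Kdr and Tek) and 0 higher, and none was at 0 in every library. Those called are already among the lower calls of the preceding lists, so they add no separate result. The other markers had log2 fold changes from −0.22 (Esam) to 0.06 (Emcn). Their summed CPM ranged from 1585 to 1666 in controls and from 1325 to 1554 in CKO. The ratio of Klf4 to Cdh5 CPM was 0.0572, 0.0536 and 0.0576 in controls and 0.0701, 0.0627 and 0.0932 in CKO, without overlap. Emcn was not called and was the only marker of this list with a positive log2 fold change, beside a list median of −0.19. Against Emcn the ratio of Klf4 was 0.247, 0.242 and 0.260 in controls and 0.251, 0.224 and 0.306 in CKO, with overlap. The separation was therefore seen against Cdh5 and not against Emcn, and ratios to the other markers are not given. For Klf2 the ratio to Cdh5 was 0.126, 0.141 and 0.121 in controls and 0.138, 0.137 and 0.172 in CKO, with overlap. Against Emcn the ratio of Klf2 was 0.545, 0.635 and 0.544 in controls and 0.495, 0.489 and 0.565 in CKO. These groups also overlapped, but the mean was lower in CKO, where against Cdh5 it was higher. The part of endothelial cell number in the Klf2, Klf4 and Nos3 values was not tested.

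KLF6, KLF10 and KLF4 are themselves induced early after a stimulus, together with the immediate-early genes. Of 21 tested immediate-early genes 5 were called higher and 0 lower, 19 had a positive log2 fold change, and the median was 0.28. Egr1, the zinc finger factor induced by growth factors and stretch, rose from 17.5 ± 1.47 to 39.8 ± 2.10 CPM (log2 fold change 1.18, SE 0.09, edgeR adjusted p = 2.99e-07). Ier3, a regulator of cell survival, rose by 0.93 (SE 0.09, adjusted p = 8.83e-06). Zfp36, which speeds the decay of mRNAs, rose by 0.57 (SE 0.10, adjusted p = 0.00308), and Btg2, an inhibitor of proliferation, by 0.37 (SE 0.08, adjusted p = 0.00794). The fifth, Maff, rose by 0.49 (SE 0.13, adjusted p = 0.0384), and was named after its value was seen. Of the members known to be induced in this way, Klf6 was higher by 0.35, Klf4 was at 0.11 and Klf10 at −0.16 on the same scale.

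The summed CPM of smooth muscle and macrophage markers was higher, and that of valve mesenchyme markers lower, in the libraries in which Klf6 was higher. Of 5 smooth muscle markers 3 were called higher, with a summed CPM of 1708 to 1753 in controls and 2370 to 2827 in CKO. Acta2 made up most of that sum, with a mean of 1208 CPM in controls and 1891 CPM in CKO. Tagln, at 1.37 and 2.06 CPM, was not called, and Cald1 overlapped between the groups (log2 fold change 0.08). Of 7 macrophage markers 3 were called higher, with a summed CPM of 90.1 to 96.2 in controls and 108 to 121 in CKO. Mrc1 and Adgre1 overlapped between the groups, with log2 fold changes of 0.00 and 0.24. Of 6 valve and cushion mesenchyme markers 1 was called lower, Postn (log2 fold change −0.29, edgeR adjusted p = 0.0156). Their summed CPM was 916 to 1107 in controls and 802 to 848 in CKO. Each of the other valve markers overlapped between the groups, with log2 fold changes from −0.29 (Lum) to 0.04 (Msx1). Of 8 cardiomyocyte markers 2 were called higher, with overlapping sums. The sums of epicardial markers and of neural crest and glia markers also overlapped, with 0 of 6 and 1 of 4 tested genes called, the latter lower. No marker of these lists was at 0 in every library. Their part in the values of Klf6 and the immediate-early genes was not tested. With the share of the ribosomal RNA row added to the fit, Klf6 had a log2 fold change of 0.45 (SE 0.10), no longer past the threshold, and only 53 genes of all tested were called higher and 3 lower.

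TGF-beta signalling, which induces Klf10, was read from 13 tested genes, of which 3 were called higher and 0 lower. The ligand gene Tgfb3 rose from 37.9 ± 1.5 to 52.8 ± 3.74 CPM (log2 fold change 0.48, SE 0.07, edgeR adjusted p = 0.00069), and Smad7, the inhibitor in the pathway's feedback loop, by 0.37 (SE 0.07, adjusted p = 0.00346). The receptor gene Tgfbr2 was at −0.20 and did not pass. The median of the list was 0.01, and Klf10 itself, at −0.16, had 2 of its 3 CKO libraries below all controls.

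The glucocorticoid receptor and its targets, which include Klf9 and Klf15 in many tissues, were read from 10 other tested genes. None was called higher and 1 lower, with a median of −0.04. Tsc22d3, the glucocorticoid-induced leucine zipper, fell from 126 ± 6.50 to 109 ± 1.70 CPM (log2 fold change −0.21, SE 0.06, edgeR adjusted p = 0.0369). Nr3c2, the mineralocorticoid receptor, was at −0.81 with an SE of 0.29 and did not pass (adjusted p = 0.124).

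Genes that KLF15 is known to control in amino acid use, glucose uptake and repolarisation gave 11 tested genes, 1 called higher and 1 lower. Slc2a4, the insulin-responsive glucose transporter, rose by 0.37 (SE 0.08, edgeR adjusted p = 0.0101). Bckdk, the kinase that inactivates branched-chain ketoacid dehydrogenase, fell from 112 ± 3.02 to 95.4 ± 4.25 CPM (log2 fold change −0.24, SE 0.06, adjusted p = 0.0216). Pdk4, the kinase that shuts off pyruvate dehydrogenase, was at −0.40 (SE 0.11) and just missed the threshold (adjusted p = 0.0513). DESeq2 and limma-voom called Pdk4 lower, as did 8 of 11 alternative settings in all. With a library left out, Pdk4 was called in only 2 of 6 fits. With the ribosomal RNA share in the edgeR fit its adjusted p was 0.679.

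Cofactors shared by the family gave no call. Of 13 tested genes for CtBP and Sin3 proteins, histone deacetylases and acetyltransferases, and the ubiquitin ligases that degrade KLF2 and KLF5, 0 were called in either direction with edgeR. At an unadjusted p under 0.05 the counts were 0 higher and 1 lower, and limma-voom called 0 while DESeq2 called 1 lower. Sin3a had the smallest adjusted p (0.0666) at a log2 fold change of −0.19 (SE 0.06), and Ctbp2 was at 0.10 (adjusted p = 0.417).

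The cardiac partners and natriuretic targets of KLF13 gave 5 tested genes, 2 called higher and 0 lower. Nppb, the gene of B-type natriuretic peptide, rose from 114 ± 3.29 to 294 ± 45.4 CPM (log2 fold change 1.36, SE 0.10, edgeR adjusted p = 0.00015). Nppa, the gene of atrial natriuretic peptide, rose by 0.38 (SE 0.09, adjusted p = 0.0378). Gata4 and Tbx5, the partners, were at 0.12 and 0.23 and did not pass (adjusted p = 0.227 and 0.0689), and Klf13 itself was at −0.05.

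**Figure D4:**
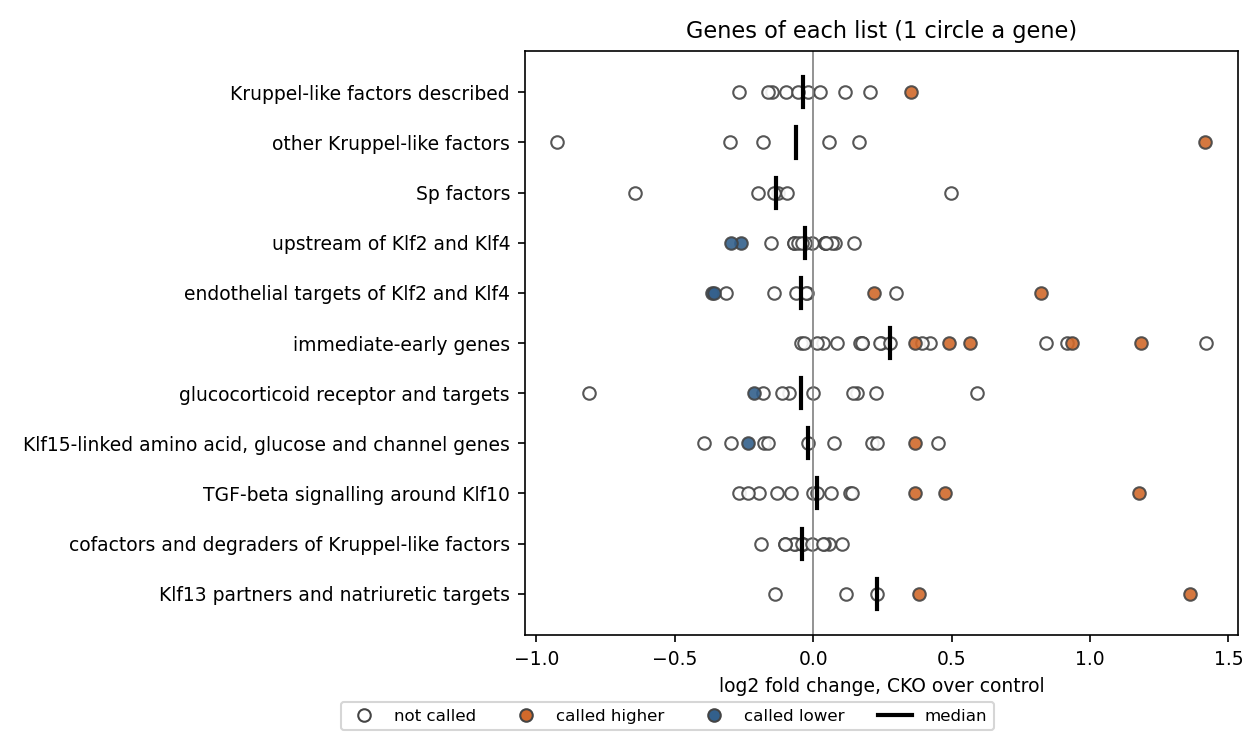
Log2 fold change (CKO over control) of every tested gene in each list, 1 circle a gene, orange where called higher and blue where called lower at an adjusted p under 0.05, with a bar at each list's median. The immediate-early list has the highest median (0.28) and the members' median is −0.04.

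Leaving out each library in turn separated the calls into those that held and those that did not. Klf14, Edn1, Tek, Egr1, Ier3, Zfp36, Tgfb3, Smad7 and Nppb were called in all 6 fits. Cdh5, Nos3, Btg2 and Slc2a4 were called in 3 of 6, S1pr1, Tsc22d3, Bckdk and Nppa in 2, and Kdr and Maff in 1. The largest adjusted p came without CKO 3 for Cdh5 (0.0903), Nos3 (0.0903), Kdr (0.217) and Bckdk (0.157). It came without control 3 for Btg2 (0.0834), Slc2a4 (0.0934), S1pr1 (0.184) and Maff (0.211), without control 2 for Tsc22d3 (0.202) and without CKO 1 for Nppa (0.274). All of these genes had the same direction in each of the 6 fits. With the ribosomal RNA share in the fit, Klf14 was still called (adjusted p = 0.0476), as were Egr1, Ier3, Smad7 and Nppb, while Edn1 (adjusted p = 0.0643), Zfp36 (0.237), Tek (0.254), Tgfb3 (0.283) and the 10 genes called in at most 3 of the 6 fits were not. With summed Y-linked expression in the fit instead, Cdh5 (adjusted p = 0.0721), Maff (0.0706), Nos3 (0.128), Bckdk (0.155), Kdr (0.249) and Tsc22d3 (0.27) were not called, while Klf6 and the other genes of this paragraph were.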

How the data were processed

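Poly(A) RNA of 6 heart libraries was compared, 3 control and 3 CKO, grouped by sample title. The deposited table holds whole-number raw counts per gene symbol, per the labels. The build is mm10, per the submitters' processing notes. Aligner, counter, annotation and use of strand: not given in the sources used here. Symbols were matched to GENCODE M21 for positions, lengths and overlaps.

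Counts were tested with edgeR 4.0.16 in R 4.3.3 (TMM factors, filterByExpr with a minimum count of 10, robust quasi-likelihood fit with group as its only term, two-sided). P-values were adjusted by Benjamini-Hochberg over 17557 genes and called under 0.05. CPM used TMM-scaled library sizes. Log2 fold changes are CKO over control, and n is 3 a group. The fit was tested on simulated data. Counting error covers sampling of reads only.

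The members and gene lists were chosen with earlier results of these data known. Named genes were the members, other Klf and Sp genes, Trim28, in each list up to 4 genes with the smallest adjusted p (2 where none was called), and the 2 profiles nearest to Klf6. A gene that this rule names is not reported here. Alternatives were other scalings and filters, DESeq2 1.42.0, limma-voom (limma 3.58.1), a non-robust and a legacy fit, a replicate block, covariates for ribosomal RNA and Y-linked genes, and leaving out each library.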

Additional observations from a re-analysis of the deposited data

How the results depend on the processing

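With all 6 libraries 1 member was called higher and 0 lower, and 14 pathway genes were called higher and 6 lower. The count of members called lower was 0 in every alternative, and Klf6 was the member called higher in all except the fit with the ribosomal RNA share, where 0 members were called. That fit called 6 pathway genes higher and 0 lower, and the fit with summed Y-linked expression called 1 lower (control 2 alone had a low Y-linked sum). The cause was not tested. Leaving out each library in turn called 9 to 14 pathway genes higher and 1 to 12 lower. Over all genes, 532 were called higher and 188 lower, against 53 and 3 with the ribosomal RNA share, 286 and 39 with Y-linked expression, 733 and 314 with DESeq2, 863 and 388 without a filter, and 255 to 1012 higher and 39 to 540 lower with a library left out, the highest being without the library labelled CKO 2. Klf6 ranged from 0.30 to 0.45 in log2 fold change over all alternatives. Klf3, Klf4 and Klf5 took both signs, and were called in none. The legacy fit, chosen after seeing the data, called 540 and 201 genes.

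Replicate numbers did not pair the libraries: the correlation of deviations from the group means over genes was −0.0022, 0.0167 and 0.0014 for numbers 1, 2 and 3. With a replicate block 1 member was called higher, and 15 pathway genes higher and 6 lower. Tsc22d3 then missed the threshold (adjusted p = 0.0652) and Pdk4 passed it (adjusted p = 0.0111).

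Depth limits Klf5, Klf9 and Klf15 most, with 119, 195 and 153 reads in their lowest libraries, where counting alone gives an error of 9.17%, 7.16% and 8.08%.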
